A study of Drosophila melanogaster with 6 samples.

Results

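The genes described here make, remove or respond to reactive oxygen. They are the oxidase genes *Duox* and *Nox*, the peroxidase and catalase genes *Irc* and *Cat*, the superoxide dismutase genes *Sod1* and *Sod2*, the glutathione synthesis genes *Gclc* and *Gclm*, and the regulator genes *cnc* and *Keap1*. They were chosen by name for their function, with earlier results of these data known. All 10 were found among the 17617 genes listed for each library. RNA was sequenced from dissected adult *Drosophila* hindguts of 2 genotypes, with 3 libraries each. Control flies carried byn-G4, tub-G80ts and U-gfp, in which the *brachyenteron* driver expresses GFP in hindgut enterocytes once the temperature-sensitive Gal80 repressor is inactivated. RasV12 flies carried the same elements and U-RasV12, which adds an oncogenic Ras that stays switched on. All flies were reared at 18°C, and adults were moved to 29°C for 7 days, so the controls shared the temperature shift and the GFP. Each library was made from pooled female hindguts dissected without the rectum, and the labels describe the tissue as enterocytes and muscle.

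In the fly gut, Duox releases hydrogen peroxide towards the lumen as part of the defence against microbes, and Irc, a secreted peroxidase with catalase activity, removes what is left of it. Inside cells superoxide dismutases turn superoxide into hydrogen peroxide, catalase and peroxiredoxins break that down, and glutathione supplies reducing power. CncC, a long isoform of *cnc*, is the fly Nrf2: it pairs with the small Maf protein Maf-S at antioxidant response elements, and Keap1 holds it in check. Glutathione S-transferase genes such as *GstD1* are its best known targets.

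The deposited values are normalized counts, that is, read counts multiplied by a factor for each library and rounded to whole numbers. Library totals ranged from 932389 to 1031380. The estimated factors ranged from 0.7115 to 1.405. They implied 686569, 1049397 and 755688 reads on genes in controls and 1401449, 988982 and 1401332 in RasV12 libraries. Control replicates 1 and 3 were thus the shallowest libraries, and RasV12 replicates 1 and 3 the deepest. Pearson correlations of log2 values across genes were between 0.832 and 0.918 within a genotype and between 0.763 and 0.812 across genotypes. Genotypes were compared with limma on log2(value + 1), for the 7155 genes above a value of 9 in at least 1 library, with Benjamini-Hochberg adjustment over all of them. Fold changes on this scale understate changes of genes with low values. The sources do not say whether the libraries came from separate crosses, although the methods call them replicates, so p-values measure the spread between these pools.

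All libraries held the hindgut marker *byn*, at 299, 283 and 450 normalized counts in controls and 60, 144 and 97 in RasV12, the gene whose driver was used, and they contained muscle transcripts. The summed value of 7 sarcomere genes lay between 7186 and 8285 in control and between 2165 and 2518 in RasV12 libraries. In bulk tissue, fewer cells of a type and less RNA per cell cannot be told apart. The 6 hemocyte markers summed to at most 9 in any library, with *NimC1*, *He* and *eater* at 0 throughout, and the 6 Malpighian tubule markers to at most 45, in control replicate 1. Fat body markers, carried mainly by the yolk protein gene *Yp1*, summed to between 2143 and 5680 in control and between 1144 and 1923 in RasV12 libraries. *Yp1* itself had 2286, 5113 and 1893 against 880, 957 and 1565, and without it the sums overlapped between genotypes. Summed values were between 33 and 154 against 120 and 210 for 7 midgut enzyme genes, 21 and 51 against 20 and 56 for 4 neuron genes, 2 and 25 against 0 and 1 for 5 ovary genes, and 12 and 23 against 43 and 59 for 2 tracheal genes. For the 5 hindgut transcription factor genes, *byn* included, sums were 752, 920 and 1048 in control and 628, 526 and 554 in RasV12. Without the *byn* values above, these sums overlapped between genotypes. The part of these tissues in the differences below was not tested.

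Of the 10 genes, 9 had values high enough to be tested, and with limma's adjusted p 0 of the 9 passed 0.05, against 16.7% of all genes tested, of which 9.04% were higher and 7.70% lower. The count was also 0 by limma-voom and with any single library left out, where the filter was still that of all 6 libraries. At an unadjusted p under 0.05 there were 3, *Duox*, *Irc* and *cnc*, against 30.1% of all genes. The genotypes also did not overlap in these 3 genes, as in 32.9% of all genes. *Duox* and *Irc* had higher values in RasV12 hindguts and *cnc* had lower ones. The median log2 fold change of the 9 genes was 0.14, beside 0.018 over all genes tested.

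**Figure D1:**
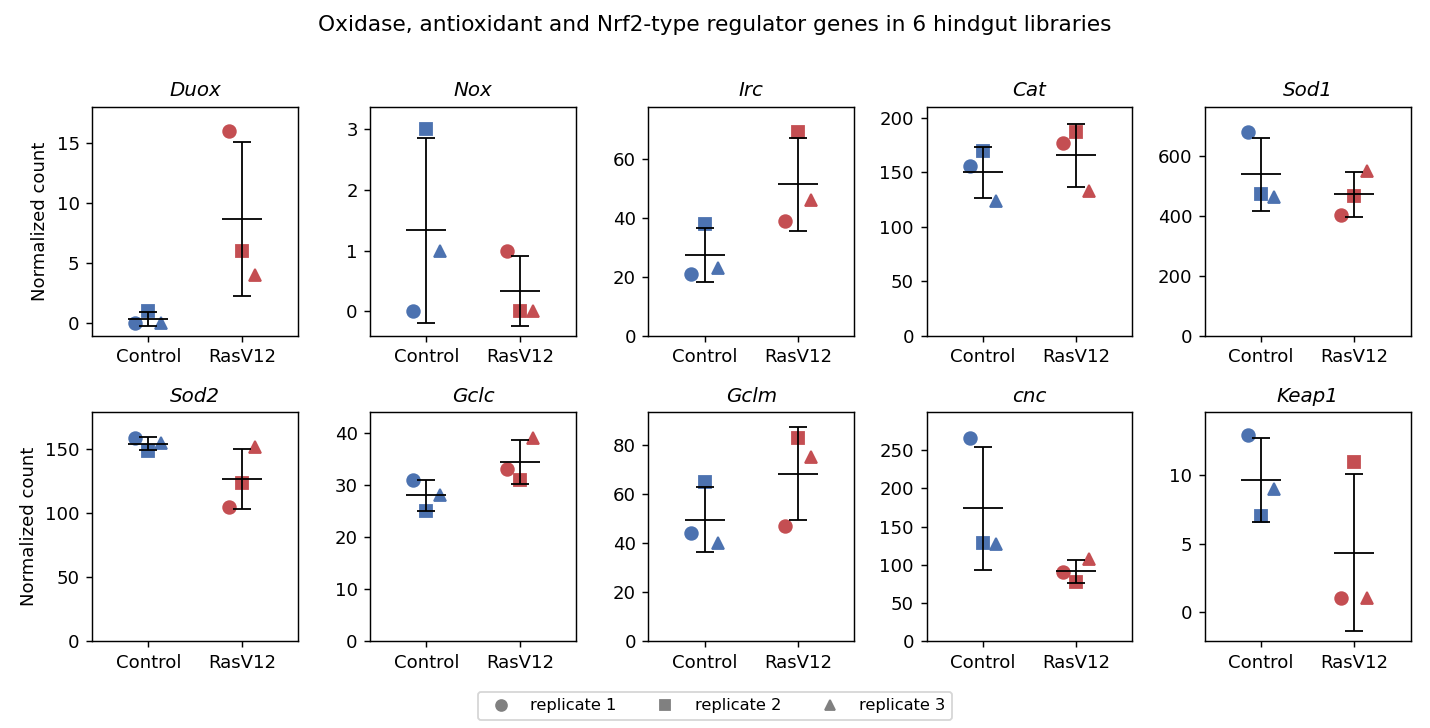
Normalized counts (vertical axes, linear, each gene on its own scale) of the 10 genes in control and RasV12 libraries. Each point is a library, marked by its replicate number, and the bars give the mean and SD of 3 libraries. All 3 RasV12 libraries lie above the controls for *Duox* (4 to 16 against 0 and 1) and for *Irc* (39 to 69 against 21 to 38), and all 3 lie below them for *cnc* (77 to 107 against 127 to 266).

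*Duox* (FBgn0283531) lies on chromosome 2L of BDGP6.54, the dm6 assembly, from 2815970 to 2830248 on the minus strand, and its 2 annotated transcripts share a single 3′ end. It had normalized counts of 0, 1 and 0 in control replicates 1, 2 and 3, and of 16, 6 and 4 in RasV12 replicates 1, 2 and 3. It was close to undetected in control hindguts and low but present in every RasV12 library, most of all in replicate 1. The log2 fold change was 2.74 (standard error, SE, 0.92, 95% interval 0.76 to 4.71, limma's adjusted p = 0.0572). *Duox* exceeded the filter of 9 only in RasV12 replicate 1, so the genotype where it was high admitted it to the test, and its place among the 3 genes above rests on that. Without the filter its adjusted p by limma was 0.0285. The fitted value also moved with the pseudocount, from 3.44 with 0.5 to 1.26 with 5. The control values correspond to an estimated 1 read in all and the RasV12 values to 33. The ratio of the rates was 22.8, with an exact interval of 3.81 to 926 that covers counting error only and not the spread between libraries. Without RasV12 replicate 1 the log2 fold change was 2.23, with an adjusted p of 0.226 by limma. That fit kept the filter set on all 6 libraries, so the left-out library still admitted *Duox* to it.

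*Nox* (FBgn0085428, 2R, 16307269 to 16316485), which encodes the other NADPH oxidase of the fly, had 0, 3 and 1 normalized counts in controls and 1, 0 and 0 in RasV12 libraries. These values were too low for a test, and a difference was not detectable at this depth. *CG8060*, on the opposite strand, covers its 3′ end and reached 15 in RasV12 replicate 2.

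*mol* (moladietz) encodes the factor that matures Duox and brings it to the cell surface. It had 14, 2 and 11 normalized counts in controls and 16, 18 and 9 in RasV12 libraries, which overlapped (log2 fold change 0.86, 95% interval −0.52 to 2.24, limma's adjusted p = 0.399). The list of 9 partners and regulators of Duox also held genes of the phospholipase C and p38 branches known to control its activity and its transcription in the fly gut. Of the 8 tested, 1 rose and 0 fell, that is 12.5% called against 16.7% of all genes tested, and the median log2 fold change was −0.20. The one that rose was *p38a*, a stress-activated kinase gene, with 7, 12 and 16 against 31, 49 and 23 normalized counts (log2 fold change 1.48, standard error 0.45, limma's adjusted p = 0.0374). Its call was lost in 5 of the 6 fits with a library left out, with an adjusted p of up to 0.197 without RasV12 replicate 2. The call was also lost without a filter, without a variance trend and by limma-voom, at adjusted p of 0.0619, 0.0708 and 0.063. *Atf-2*, the transcription factor of the same branch, was at 3 or below in every library and was not tested.

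*Irc* (FBgn0038465, 3R, 17002875 to 17007208, plus strand) had 21, 38 and 23 normalized counts in controls and 39, 69 and 46 in RasV12 libraries. The groups did not overlap, but by a single unit, between control replicate 2 and RasV12 replicate 1. Means were 27.3 ± 9.29 and 51.3 ± 15.7 (SD, n = 3 each), and the log2 fold change was 0.89 (SE 0.37, 95% interval 0.11 to 1.68, limma's adjusted p = 0.118). Over every alternative fit the adjusted p stayed between 0.0783 and 0.37. The other 4 heme peroxidase genes of the list, *Pxn*, *Pxt*, *Pxd* and *cd*, had values of at most 9 and were not tested. *Pxd* and *cd* were listed at 0 in all libraries.

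*Cat* (FBgn0000261, 3L, 18822604 to 18828188), the catalase gene, had 156, 170 and 124 normalized counts in controls and 177, 187 and 133 in RasV12 libraries. The groups overlapped, and the log2 fold change was 0.14 (95% interval −0.40 to 0.68, limma's adjusted p = 0.752). *Sod1* (FBgn0003462, 3L, 11112281 to 11113740), for the cytosolic copper-zinc enzyme, had 679, 472 and 464 against 401, 465 and 550. Control replicate 1 stood above the other libraries, and the groups overlapped. The log2 fold change of *Sod1* was −0.18 (95% interval −0.67 to 0.31, limma's adjusted p = 0.640). *Sod2* (FBgn0010213, 2R, 16772785 to 16773915), for the mitochondrial manganese enzyme, had 159, 149 and 155 in control and 105, 124 and 152 in RasV12 libraries. Its controls lay close together, 2 of the 3 RasV12 libraries lay below them, and the log2 fold change was −0.30 (95% interval −0.82 to 0.23, limma's adjusted p = 0.454). The intervals of these 3 genes exclude a doubling and a halving on this scale, which is a log2 change of 1 either way, but not smaller changes.

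Of 3 other genes of the superoxide dismutase family or its copper supply, 1 rose and 0 fell, beside 16.7% of all genes tested that passed. *Rsod*, whose product is related in sequence to superoxide dismutases, had 6, 4 and 3 normalized counts in controls and 18, 24 and 18 in RasV12 libraries (log2 fold change 2.00, standard error 0.51, limma's adjusted p = 0.0166). It exceeded the filter of 9 in RasV12 libraries only. Leaving out any of the RasV12 replicates put its adjusted p between 0.0586 and 0.0918. *Sod3*, for the extracellular enzyme, had 77, 105 and 83 against 113, 99 and 84, with overlap between the groups (limma's adjusted p = 0.734). *Ccs*, for the copper chaperone of Sod1, was uneven in control, with 31, 65 and 13 against 55, 39 and 57 (limma's adjusted p = 0.343). The median log2 fold change of the 3 genes was 0.71.

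**Figure D2:**
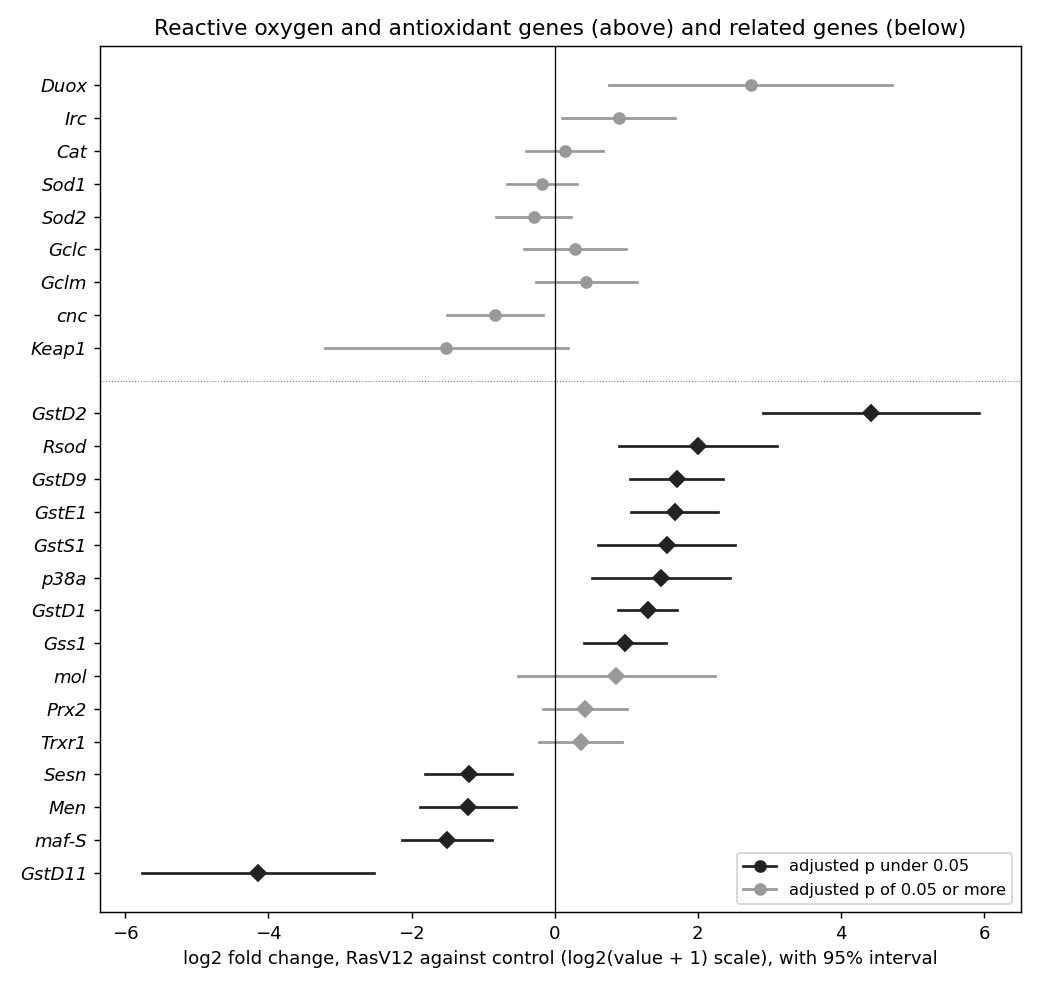
Log2 fold changes of RasV12 against control libraries on the log2(value + 1) scale (horizontal axis) with 95% intervals from limma, for the 9 tested genes above the dotted line and for related genes below it. Black marks an adjusted p under 0.05 and grey a higher one. The intervals of *Duox*, *Irc* and *cnc* leave out 0 without passing the adjusted threshold, and *GstD2* and *GstD11* lie farthest from 0 at 4.42 and −4.15, values that depend on the added 1 because most or all libraries of a genotype were at 0.

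*Gclc* and *Gclm* encode the catalytic and modifier subunits of glutamate-cysteine ligase, the rate-limiting enzyme of glutathione synthesis. *Gclc* (FBgn0040319, X, 8102181 to 8116147) had 31, 25 and 28 normalized counts in controls and 33, 31 and 39 in RasV12 libraries. The groups met at 31, and the log2 fold change was 0.28 (95% interval −0.43 to 1.00, limma's adjusted p = 0.610). *Gclm* (FBgn0046114, 3R, 22685006 to 22686510) had 44, 65 and 40 against 47, 83 and 75, with overlap between control replicate 2 and RasV12 replicate 1. Its log2 fold change was 0.44 (95% interval −0.26 to 1.15, limma's adjusted p = 0.396). The 95% intervals reach 1, so a doubling of either gene is not excluded.

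Of the 4 other genes of glutathione synthesis and of the path that supplies its cysteine, 1 rose and 0 fell, beside 16.7% of all genes tested that passed, with a median log2 fold change of 0.83. *Gss1*, one of a tandem pair of glutathione synthetase genes on the X chromosome, had 110, 84 and 66 normalized counts in controls and 152, 172 and 182 in RasV12 libraries. All RasV12 libraries lay above the controls (log2 fold change 0.98, standard error 0.27, limma's adjusted p = 0.0228), a call lost in 4 of the 6 fits with a library left out and, at an adjusted p of 0.0934, without a variance trend. Its neighbour *Gss2* had 101, 62 and 50 against 100, 120 and 135 (limma's adjusted p = 0.102), and how reads were shared between the 2 copies is not given in the sources used here. *Cth*, for cystathionine gamma-lyase, had 42, 53 and 40 against 87, 67 and 99, which did not overlap (log2 fold change 0.88, limma's adjusted p = 0.0553). *Cbs*, for the enzyme one step before it, had 13, 12 and 13 against 8, 5 and 4 (limma's adjusted p = 0.190).

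*cnc* (FBgn0262975, 3R, 23185580 to 23226711, minus strand) had 266, 128 and 127 normalized counts in controls and 91, 77 and 107 in RasV12 libraries. The genotypes did not overlap, and control replicate 1 had more than any other library. The log2 fold change was −0.84 (SE 0.31, 95% interval −1.51 to −0.16, limma's adjusted p = 0.0864). Without control replicate 1 it was −0.48 (limma's adjusted p = 0.271), and without control replicate 3 it was −1.02 (limma's adjusted p = 0.0515).

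The libraries read the 3′ ends of transcripts, and 13 of the 16 annotated *cnc* transcripts end at 23185580 and the other 3 at 23186412. The gene values therefore sum isoforms, and CncC was not measured apart from the shorter ones. The last 63 bases before the more distal end also belong to *Irk1*, a potassium channel gene on the opposite strand. *Irk1* rose from 11, 20 and 8 to 56, 35 and 29 normalized counts (log2 fold change 1.59, limma's adjusted p = 0.0251), a call that held in 1 of the 6 fits with a library left out. *CG46310*, annotated over the same end, had the control values of *Irk1* and 62, 37 and 29 in RasV12 libraries, so it is no separate observation (limma's adjusted p = 0.0217, held in 2 of the 6 fits). *Irk1* moved in the direction opposite to *cnc*, and the part of shared reads in either change was not tested. Whether reads were counted by strand is not given in the sources used here.

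*Keap1* (FBgn0038475, 3R, 17073942 to 17079945) had 13, 7 and 9 normalized counts in controls and 1, 11 and 1 in RasV12 libraries. RasV12 replicates 1 and 3 were near 0 and replicate 2 lay within the control range. The log2 fold change was −1.51 (SE 0.79, 95% interval −3.21 to 0.18, limma's adjusted p = 0.218), and it was −2.38 without RasV12 replicate 2 (limma's adjusted p = 0.0745) and −0.80 with a pseudocount of 5 (limma's adjusted p = 0.268).

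**Figure D3:**
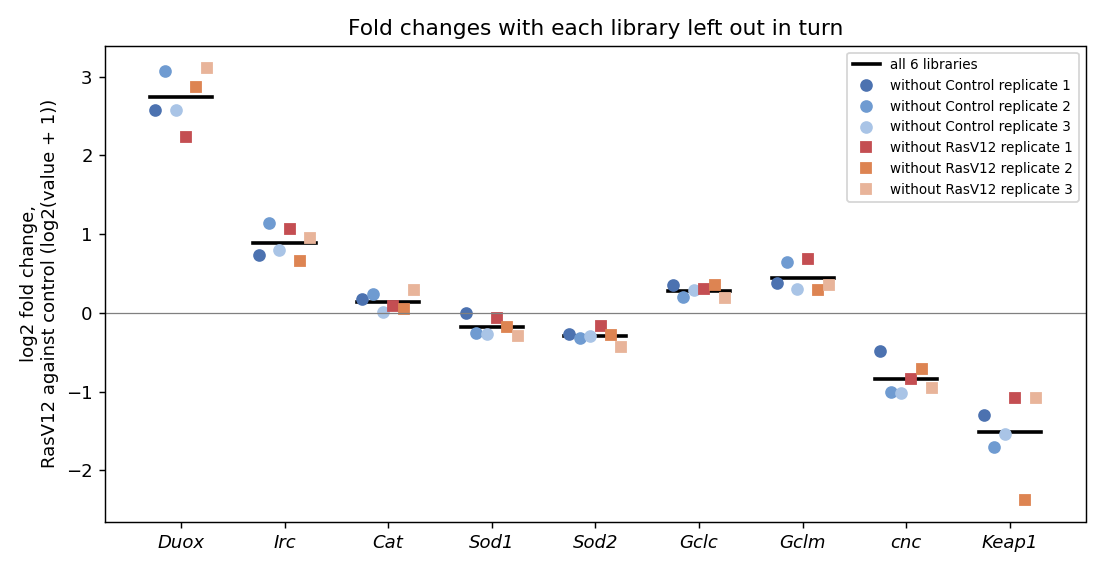
Log2 fold change of RasV12 against control (vertical axis, log2(value + 1) scale) for the 9 tested genes, with all 6 libraries (black line) and with each library left out in turn (points). *cnc* spans −1.02 to −0.48 and *Keap1* −2.38 to −1.08, and *Duox* spans 2.23 to 3.11.

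Among 5 genes for partners of CncC and Keap1, 1 fell and 0 rose, against 16.7% of all genes called, with a median log2 fold change of −0.17. *maf-S*, for the obligate small Maf partner of CncC, had 90, 80 and 95 normalized counts in controls and 33, 33 and 26 in RasV12 libraries. Its groups were far apart, at 88.3 ± 7.64 and 30.7 ± 4.04 (SD, n = 3 each), and the log2 fold change was −1.50 (SE 0.29) with an adjusted p of 0.00322 by limma. The call held with any library left out, with an adjusted p of at most 0.0181. *ref(2)P*, the p62 gene, had 177, 163 and 99 against 238, 152 and 316 and did not pass the test (limma's adjusted p = 0.169). *Cul3* and *Roc1a*, for subunits of the ubiquitin ligase that Keap1 serves, and *fs(1)h*, a BET protein gene, had adjusted p of 0.828, 0.811 and 0.124 (limma).

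The glutathione S-transferases conjugate glutathione to oxidized and foreign compounds. The list held the 35 genes whose symbols begin with *GstD*, *GstE*, *GstO*, *GstS*, *GstT* or *GstZ*, and 24 were tested. Of these 5 rose and 1 fell, that is 25.0% against 16.7% of all genes tested, and the median log2 fold change was 0.10. The 4 classes D, E, O and T held 5, 10, 3 and 4 tested genes, of which 4, 1, 0 and 0 passed 0.05. Among those that passed, *GstD2* and *GstD11* exceeded the filter only in the genotype where each was high.

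*GstD1* (FBgn0001149), the usual readout of CncC activity in the fly, had 478, 548 and 594 normalized counts in controls and 1389, 1320 and 1272 in RasV12 libraries. The lowest RasV12 library had more than 2 times the highest control. The means were 540.0 ± 58.4 and 1327 ± 58.8 (SD, n = 3 each), and the log2 fold change was 1.30 (SE 0.19) with an adjusted p of 0.000438 by limma. *GstD9*, its neighbour, had 52, 36 and 28 against 130, 135 and 110 (log2 fold change 1.71, standard error 0.30, limma's adjusted p = 0.00174). *GstD2* went from 0, 1 and 0 to 22, 46 and 17, an estimated 1 read against 99, a ratio of 68.3 with an exact counting interval of 12.0 to 2720 (log2 fold change 4.42, limma's adjusted p = 0.000764). *GstD11* went the other way, with 18, 20 and 13 in control and 0 in all 3 RasV12 libraries. Its control mean was 5.67 times a floor of 3 per library, a ratio that leaves out the spread between the controls (limma's adjusted p = 0.00209). *GstD2* exceeded the filter of 9 only in RasV12 libraries and *GstD11* only in controls, so the genotype where each was high admitted it to the test. With a pseudocount of 5 their fitted log2 fold changes were 2.55 and −2.12.

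These genes lie together in a cluster of 11 *GstD* genes on 3R between 12364776 and 12385624. *GstD10*, *GstD9* and *GstD1* are on the minus strand and the other 8 on the plus strand, with *GstD2* next to *GstD1* and *GstD11* at the far end. *GstD3*, beside *GstD2*, had 13, 7 and 4 against 0, 15 and 13 (limma's adjusted p = 0.801). The remaining 6 genes had values of at most 6 and were not tested. The genes are close copies, and how reads that match several of them were counted is not given in the sources used here.

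**Figure D4:**
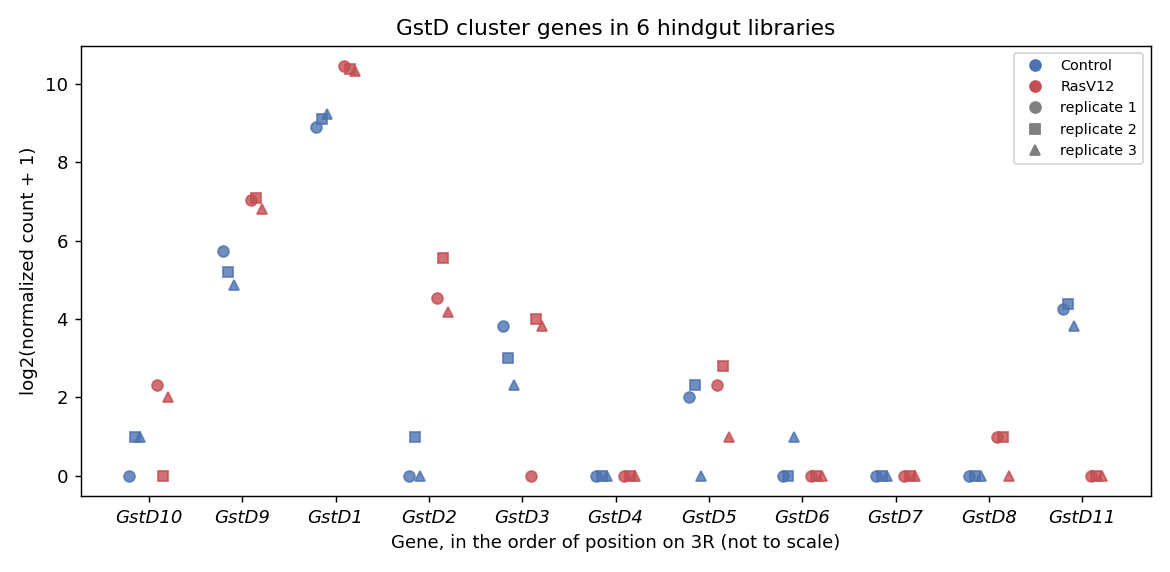
Log2(normalized count + 1) (vertical axis) of the 11 *GstD* genes in the order of their position on 3R (horizontal axis, not to scale), with a point for each library. RasV12 libraries lie above the controls for *GstD9*, *GstD1* and *GstD2*, and for *GstD11* the controls lie at 13 to 20 normalized counts and the RasV12 libraries at 0.

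Outside that cluster *GstE1* had 63, 75 and 44 normalized counts in controls and 160, 227 and 194 in RasV12 libraries (log2 fold change 1.68, standard error 0.28, limma's adjusted p = 0.00114). It was 1 of 10 tested *GstE* genes to pass, and 4 of the 14 *GstE* genes were too low to test. *GstE6* had 524, 468 and 482 against 387, 481 and 668 (limma's adjusted p = 0.956), and *GstE12* had 541, 621 and 526 against 510, 561 and 492 (limma's adjusted p = 0.754). *GstS1*, for the sigma-class enzyme, which in the fly is abundant in muscle, had 15, 49 and 13 against 58, 69 and 69 (log2 fold change 1.56, standard error 0.45, limma's adjusted p = 0.0286). It did not overlap between genotypes, but the call was lost in 5 of the 6 fits with a library left out and in the fit without a variance trend. *GstD1*, *GstD2*, *GstD9*, *GstD11* and *GstE1* kept an adjusted p under 0.05 with any library left out and under each of the 9 other alternatives.

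The peroxiredoxin and thioredoxin list held 15 genes, of which 12 were tested, 0 rose and 1 fell, that is 8.33% against 16.7% of all genes tested, with a median log2 fold change of 0.31. *Sesn*, the sestrin gene, whose vertebrate relatives are induced by oxidative stress, had 104, 94 and 106 normalized counts in controls and 43, 36 and 53 in RasV12 libraries. It fell by 1.20 on the log2 scale (SE 0.28, limma's adjusted p = 0.0105), with an adjusted p of 0.0575 without RasV12 replicate 2. *CG46429* lies over a 3′ end of the gene, and their reads may be shared. The genotypes did not overlap either for *Prx3*, a mitochondrial peroxiredoxin gene, with 67, 52 and 62 against 28, 43 and 28 (limma's adjusted p = 0.0809, log2 fold change −0.87). *Prx5* had 233, 224 and 278 against 181, 113 and 150 (limma's adjusted p = 0.0563, log2 fold change −0.74), and *CG7215* on the same strand lies over its 3′ end. The thioredoxin gene *Trx2* lay higher in all RasV12 libraries, with 94, 128 and 122 against 213, 196 and 162 (limma's adjusted p = 0.0592, log2 fold change 0.73). So did *Gtpx*, with 194, 219 and 199 against 225, 308 and 318 (limma's adjusted p = 0.199, log2 fold change 0.46). Of the 12 tested genes, 5 did not overlap, 2 higher and 3 lower, beside 32.9% of all genes tested. *Prx2*, formerly *Jafrac1*, for the cytosolic peroxiredoxin, had 129, 204 and 142 against 280, 169 and 193, which overlapped (log2 fold change 0.43, 95% interval −0.16 to 1.01, limma's adjusted p = 0.316). *Trxr1*, for the reductase that takes the place of glutathione reductase in flies, had 138, 125 and 195 against 155, 254 and 183 (log2 fold change 0.36, 95% interval −0.22 to 0.95, limma's adjusted p = 0.397). Both are described as CncC targets in the fly, as is *GstD1*, but whether their changes differ from that of *GstD1* was not tested.

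Of 4 genes for enzymes that make NADPH, 0 rose and 1 fell, against 16.7% of all genes called, with a median log2 fold change of −0.47. *Men*, for the cytosolic malic enzyme, had 97, 109 and 78 normalized counts in controls and 38, 31 and 54 in RasV12 libraries. The groups did not overlap (log2 fold change −1.21, standard error 0.31, limma's adjusted p = 0.0166), and the call was lost in 4 of the 6 fits with a library left out and, at an adjusted p of 0.063, without a variance trend. *Zw* and *Pgd*, for the pentose phosphate pathway dehydrogenases, had 103, 52 and 59 against 42, 48 and 52, and 41, 104 and 76 against 105, 119 and 138 (limma's adjusted p = 0.305 and 0.126). *Idh* had 268, 632 and 384 against 225, 318 and 387 (limma's adjusted p = 0.401).

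Over all 79 related genes 60 were tested, and 12 of them passed an adjusted p of 0.05, beside 16.7% of all genes tested. Of these 12, 8 were higher and 4 lower in RasV12 hindguts. The count was 6 without RasV12 replicate 2. Among the 12, *GstD2*, *GstD11* and *Rsod* exceeded the filter of 9 only in the genotype where each was high.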

How the data were processed

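The authors sequenced QuantSeq 3′ mRNA libraries on an Ion Proton, mapped reads on dm6 by hisat2, gave those left unmapped to bowtie2, and normalized counts per gene through metaseqR2 by the DESeq algorithm, run with its utr setting. The deposited signal per gene is thus a read count scaled by 1 factor per library and rounded. Factors were estimated from how often each whole number occurs. In control replicates 1 and 3, 17 and 15 of the whole numbers from 1 to 60 never occur, so low values there are coarse. Whether strand was used, and how reads matching several genes were counted, is not given in the sources used here.

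Names came from Ensembl tables (17519 of 17617 identifiers) and positions from Ensembl 115 on BDGP6.54. For all 6 libraries, log2(value + 1) was modelled in limma 3.58.1 (R 4.3.3) with a variance trend, two-sided and without a block, over genes above the median value of 9 in at least 1 library. A call is an adjusted p under 0.05. A permutation of 3 and 3 libraries cannot reach a p below 0.1 for a single gene, so none was used. Ratios of estimated reads have exact binomial intervals. Alternatives covered pseudocounts, filters, scaling, variance models, a block and left-out libraries. Fits with a library left out kept the genes that passed the filter with all 6 libraries.

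The 10 genes and all lists were chosen with earlier results of these data known. Named besides them are listed genes that passed 0.05, the targets *Prx2*, *Trxr1* and *GstD1*, and *mol*. Further names were picked with their values in view. The marker symbol *nos* was not matched. A planned promoter motif search was not run, as no sequence was used here. Python 3.11.15, pandas 2.3.3, numpy 2.4.6, scipy 1.17.1 and matplotlib 3.10.9 made the tables and plots.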

Additional observations from a re-analysis of the deposited data

How the results depend on the processing

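Of the 9 genes tested, 0 passed an adjusted p of 0.05 under pseudocounts of 0.5 and 5, a minimum value of 10 in 3 libraries, TMM or RLE factors, limma-voom, or with any library left out. The minimum of 10 left 7 of them to test, without *Duox* and *Keap1*. Without a filter, and without a variance trend, the count was 1, which was *Duox* (limma's adjusted p = 0.0285 and 0.0245). With libraries left out in turn, *Sod1* ranged from −0.29 to 0.00032, changing sign without control replicate 1. The other 8 genes kept their direction in every fit. The calls over all genes, 1198, became 704 without a variance trend and ranged from 604 to 1157 with a library left out, lowest without RasV12 replicate 2. The calls among related genes ranged from 6 to 12 with a library left out and from 8 to 13 under the other alternatives. The median of all genes was 0.0181, and 0.019 under TMM or RLE factors.

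With the replicate number as a block (replicate block) 1058 genes, 0 of the 9 and 12 related genes were called. Deviations of same-numbered libraries were close to uncorrelated (r = −0.0464, 0.00408 and −0.0122 across genes). These values cannot tell whether same-numbered libraries were prepared together. edgeR and DESeq2 were planned but not run, because the values are scaled and whole reads could not be recovered exactly.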
